A study of Mus musculus with 9 samples.

Results

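Genes of the glucocorticoid pathway and of the metallothionein family, 10 of the 56246 genes in the count table, were followed in RNA sequencing of mouse prefrontal cortex (PFC). They were listed by name as 2 corticosteroid receptors (Nr3c1 and Nr3c2), the receptor co-chaperone gene Fkbp5, 4 genes that glucocorticoids induce (Sgk1, Tsc22d3, Cdkn1a and Zbtb16) and 3 metallothioneins (Mt1, Mt2 and Mt3). They were chosen by name with edgeR fold changes from earlier work on the same libraries in view, in which Mt2 already stood out in vehicle against WT. Their calls therefore describe these libraries and are no independent test. All 10 passed the filter on low counts and were tested.

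The tissue came from adult male mice on a C57BL/6 background, perfused with cold saline before dissection, in 9 libraries, 3 per group. WT mice (replicates 1, 3 and 6) carry no treatment in their labels, although their titles bear the mark for medium and the study describes them as given medium. Rag1-/- + vehicle mice (replicates 1, 2 and 3) were given medium. Rag1-/- + WT EVs mice (replicates 2, 3 and 5) were given extracellular vesicles (EVs) from the blood of WT mice by intravenous injection. The Rag1 knockout is germline, so it is present in every cell, and these mice have no mature T or B cells. The study counts its replicates here as mice, and the libraries are taken as separate mice. The comparisons asked how PFC expression differed between Rag1-/- and WT mice, and how it differed after WT EVs.

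Glucocorticoids leave the adrenal gland in daily pulses and under stress, enter cells and bind the glucocorticoid receptor (Nr3c1) or the mineralocorticoid receptor (Nr3c2), which in the brain also binds glucocorticoids and does so with higher affinity. Unliganded receptors are held in the cytosol by Hsp90 and its co-chaperones. With hormone bound they move to the nucleus and act on target genes, Fkbp5, Sgk1, Tsc22d3 and Zbtb16 among the best known. Metallothioneins are small cysteine-rich proteins that bind zinc and copper. Mt1 and Mt2 are induced by metals through the factor Mtf1 and by glucocorticoids, and in the brain are made mostly by astrocytes, whereas Mt3 is a brain form that responds little to these inducers.

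Reads assigned to genes numbered 32.0 to 41.2 M per library. WT replicate 6 stood apart: 30.1% of its reads lay outside annotated exons, against 6.54 to 11.2% in the other 8 libraries, and 21389 genes had at least 10 reads there, against 16326 to 17662. The share outside exons also moved with the groups: it was 6.54 to 6.9% in vehicle libraries, below every WT (8.11 to 30.1%) and every EV library (7.73 to 11.2%). Mitochondrial genes took 8.8 to 13% of gene reads in vehicle, 10.3 to 15.2% in WT and 14.3 to 17.7% in EV libraries, and the 10 most abundant genes took 12.5 to 16.4%, 13.4 to 18% and 19.1 to 22.7%. The part of these shares in the results for the members was not tested, apart from the covariate for reads outside exons given beside Mt2. Rag1 itself had 9 to 37 reads in WT libraries and 192 to 291 in the 6 libraries labelled Rag1-/-, so a count over the whole gene does not show its loss, and groups are named here as labelled. The 12 neuron markers summed to 10704 to 11991 CPM (read counts scaled to a common library total, with TMM factors) in every library and none was at 0, but they did not move as 1: in vehicle against WT 3 were called higher and 1 lower (median log2 fold change 0.33), with Camk2a at 5667 CPM in WT and 3830 in vehicle and Syt1 at 1231 and 1910 CPM. In EVs against vehicle 1 was higher and 1 lower (median -0.23). By edgeR's quasi-likelihood test on 17948 genes, 16% passed a Benjamini-Hochberg adjusted p of 0.05 in Rag1-/- + vehicle against WT (6.28% higher, 9.71% lower), 3.42% in WT EVs against vehicle (2.17% higher, 1.24% lower) and 0.0446% in WT EVs against WT. Scaling moved these splits. With read totals in place of TMM factors, 726 genes were higher and 2021 lower in the first comparison (1128 and 1743 with TMM), and 257 were higher and 457 lower in the second (390 and 223 with TMM).

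Of the 10 members, 1 (Mt2) was called in Rag1-/- + vehicle against WT, 1 (Mt3) in WT EVs against vehicle and 0 in WT EVs against WT, where 5 had an unadjusted edgeR p under 0.05 and DESeq2 called 0. Among members, the largest unadjusted edgeR p under 0.05 was that of Tsc22d3, Fkbp5 and Fkbp5 in these comparisons in turn. Counted from the smallest p, they ranked 5698, 3814 and 2421 of 17948 genes. Groups of 3 that did not overlap were found for 3 members, 2 members and 3 members in these comparisons. Over all genes tested this held for 38.1%, 37% and 16.5%. Their median absolute log2 fold change was 0.20 in the first comparison, against 0.28 over all genes, 0.21 against 0.23 in the second and 0.24 against 0.18 in the third. Leaving out vehicle replicate 1, 2 or 3 in turn left 0 members called in both comparisons with that group, and at most 3 of all genes. Leaving out WT replicate 1 also left 0 members in both, with 1 gene called in the first and 17 in the second. Without WT replicate 6, Mt2 stayed called in the first comparison, and Mt1 joined Mt3 in the second.

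**Figure D1:**
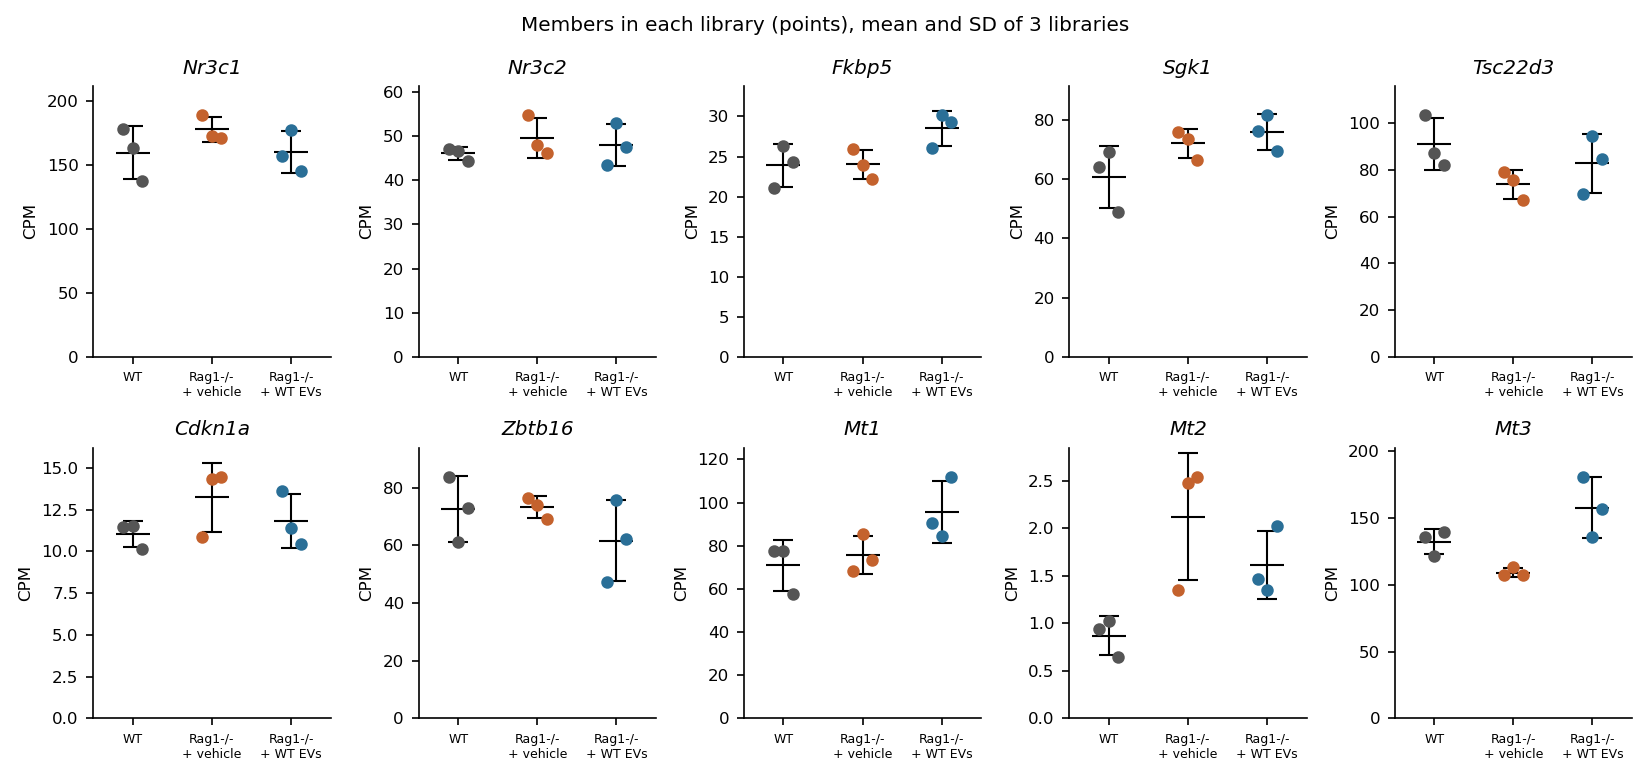
CPM (TMM-scaled) of the 10 members in each library, 1 panel per gene with its axis from 0; points are libraries, the long bar is the mean and the whiskers the SD of 3 libraries. Mt2 stood at 1.35 CPM or more in every vehicle library and at 1.03 or less in every WT library, and Mt3 at 113 or less in vehicle libraries and 136 or more in EV libraries, while points of the receptors overlap in all 3 groups.

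Levels between genes were compared per exonic length, as TPM, read counts divided by exonic length and scaled to a common total without TMM factors. For any given gene the exonic length is the same in every library. Groups can therefore compare differently in CPM and in TPM only through the scaling. Mt3 was the most abundant member (300.2 to 464 TPM over the 9 libraries), followed by Mt1 (154 to 231 TPM), and the 2 ranges did not overlap. Nr3c1 (48.7 to 87.0 TPM) and Tsc22d3 (43.7 to 73.0 TPM) came next, and their order held in only 6 of 9 libraries. Sgk1 (33.4 to 54.8 TPM) lay above Zbtb16 (24.5 to 51.3 TPM) in 7 of 9. Nr3c2 (18.3 to 30.0 TPM) was below Zbtb16 and above Cdkn1a (7.56 to 12.9 TPM) in 9 of 9. At the bottom, the order of Cdkn1a over Fkbp5 (6.80 to 9.67 TPM) held in 8 of 9 libraries, and that of Fkbp5 over Mt2 (3.66 to 13.7 TPM) in 6 of 9. So the glucocorticoid receptor message was about as abundant per length as that of its target Tsc22d3. The place of Mt2 in this order holds for the reads as counted only, since much of its exonic length overlaps another gene, as given with its reads below. Exonic length joins all exons of all transcripts, so a gene with many start sites or a retained intron, such as Mt1, is understated.

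**Figure D2:**
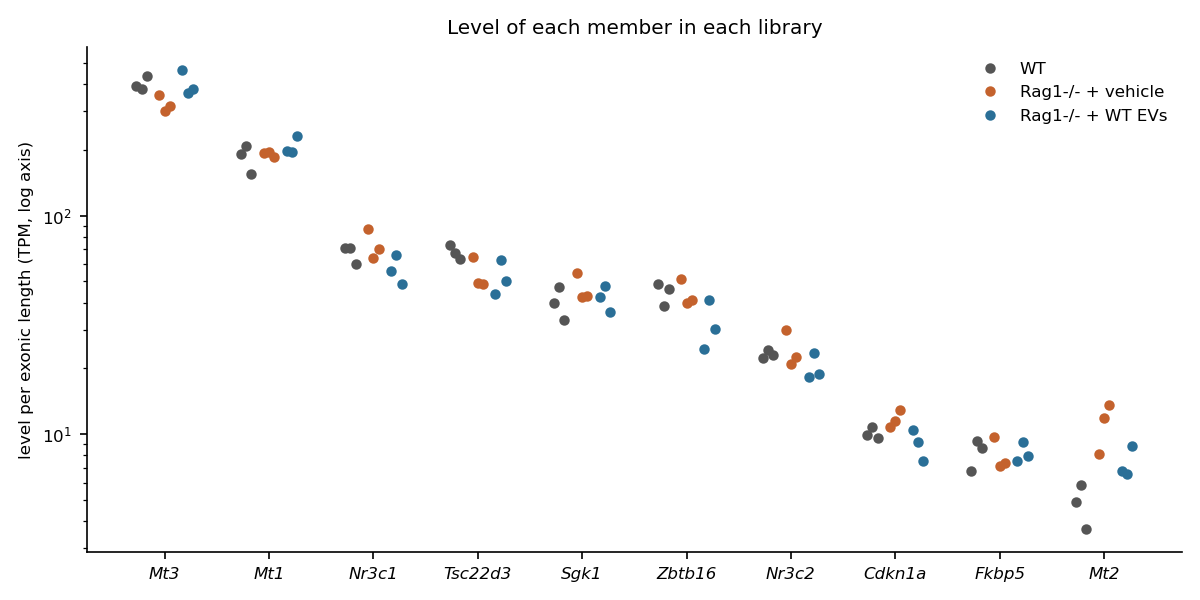
Level per exonic length (TPM, log axis) of each member in the 9 libraries, ordered by the mean; colours are the 3 groups. Mt3 and Mt1 lie above every other member, and Mt2 spans 3.66 to 13.7 TPM, with WT libraries lowest.

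The receptors overlapped between groups. Nr3c1 (chromosome 18, 39410545 to 39519421, minus strand, GRCm38), the glucocorticoid receptor, had 178, 163 and 137 CPM in replicates 1, 3 and 6 of WT. Replicates 1, 2 and 3 of vehicle had 189, 173 and 171 CPM, and replicates 2, 3 and 5 of EVs had 157, 177 and 145 CPM. WT replicate 6 was the lowest library, and the groups overlapped in all 3 comparisons. Its log2 fold change was 0.16 (95% interval -0.09 to 0.40, edgeR adjusted p = 0.337) in vehicle against WT and -0.15 (-0.40 to 0.09, edgeR adjusted p = 0.447) in EVs against vehicle, which leaves room for a difference of up to 1.32-fold in the first. Nr3c2 (chromosome 8, 76899442 to 77245012, plus strand), the mineralocorticoid receptor, was as even. It stood at 47.1, 46.7 and 44.4 CPM in WT libraries, at 54.8, 48.1 and 46.1 CPM in vehicle libraries and at 43.5, 52.9 and 47.6 CPM in EV libraries, in the replicate order given for Nr3c1. The interval of its log2 fold change ran from -0.11 to 0.32 in vehicle against WT and from -0.26 to 0.16 in EVs against vehicle.

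Fkbp5 (chromosome 17, 28399094 to 28517527, minus strand) encodes a co-chaperone that lowers the receptor's affinity for hormone and is itself induced by it. It was level between WT (21.0, 26.4 and 24.3 CPM) and vehicle libraries (25.9, 24 and 22.2 CPM), with a log2 fold change of 0.01 (-0.23 to 0.24). In EV libraries it stood at 26.1, 30.2 and 29.3 CPM. All 3 EV libraries lay above all 3 vehicle libraries, but by only 26.1 against 25.9 CPM at the nearest points. The log2 fold change was 0.25 (SE 0.108) and did not pass (edgeR adjusted p = 0.199). In TPM, scaled without TMM factors, the groups were alike, at 8.09 ± 1.38 (SD, n = 3) in vehicle and 8.21 ± 0.844 in EV libraries. There the libraries overlapped.

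Among the 4 induced genes, none was called in any comparison by edgeR or DESeq2, with 1, 0 and 1 at an unadjusted edgeR p under 0.05. Tsc22d3 (chromosome X, 140539528 to 140600659, minus strand), also known as Gilz, a mediator of the anti-inflammatory action of glucocorticoids, stood at 103, 87.4 and 82.2 CPM in WT libraries, at 79.1, 75.4 and 67.1 CPM in vehicle libraries and at 69.5, 94.3 and 84.5 CPM in EV libraries. Every vehicle library lay below every WT library, while the EV libraries spread over both. Its log2 fold change in vehicle against WT was -0.30 (SE 0.126, edgeR adjusted p = 0.112). With library quality weights in limma-voom it was -0.41 and passed (adjusted p = 0.00756).

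Sgk1 (chromosome 10, 21882184 to 21999903, plus strand) encodes a kinase that acts on ion channels and transporters. It stood at 63.9, 68.9 and 48.9 CPM in WT libraries, at 75.9, 73.6 and 66.3 CPM in vehicle libraries and at 76.3, 81.6 and 69.3 CPM in EV libraries. The EV libraries lay above the WT libraries with no overlap, the nearest at 69.3 against 68.9 CPM, and the log2 fold change of 0.32 (SE 0.124) did not pass (edgeR adjusted p = 0.256). WT replicate 6 was again the lowest library. In vehicle against WT the log2 fold change of 0.25 (edgeR adjusted p = 0.171) passed without WT replicate 3 (0.40, adjusted p = 0.0311).

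Cdkn1a (chromosome 17, 29090976 to 29100727, plus strand), the cell cycle inhibitor p21, is a target of p53 as well as of the glucocorticoid receptor. It stood at 11.5, 11.5 and 10.2 CPM in WT libraries, at 10.8, 14.4 and 14.5 CPM in vehicle libraries and at 13.6, 11.4 and 10.4 CPM in EV libraries, and the groups overlapped in all 3 comparisons. Vehicle replicate 1 lay among the WT libraries, and the log2 fold change of vehicle against WT was 0.26 (edgeR adjusted p = 0.201). Zbtb16 (chromosome 9, 48654297 to 48836222, minus strand), a transcription factor that responds strongly to glucocorticoids in many tissues, stood at 83.9, 61.1 and 72.9 CPM in WT, at 76.6, 74.0 and 69.1 CPM in vehicle and at 47.3, 75.7 and 62.1 CPM in EV libraries. The low value was that of EV replicate 2 alone, and the groups overlapped throughout. The interval of its log2 fold change ran from -0.60 to 0.10 in EVs against vehicle.

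**Figure D3:**
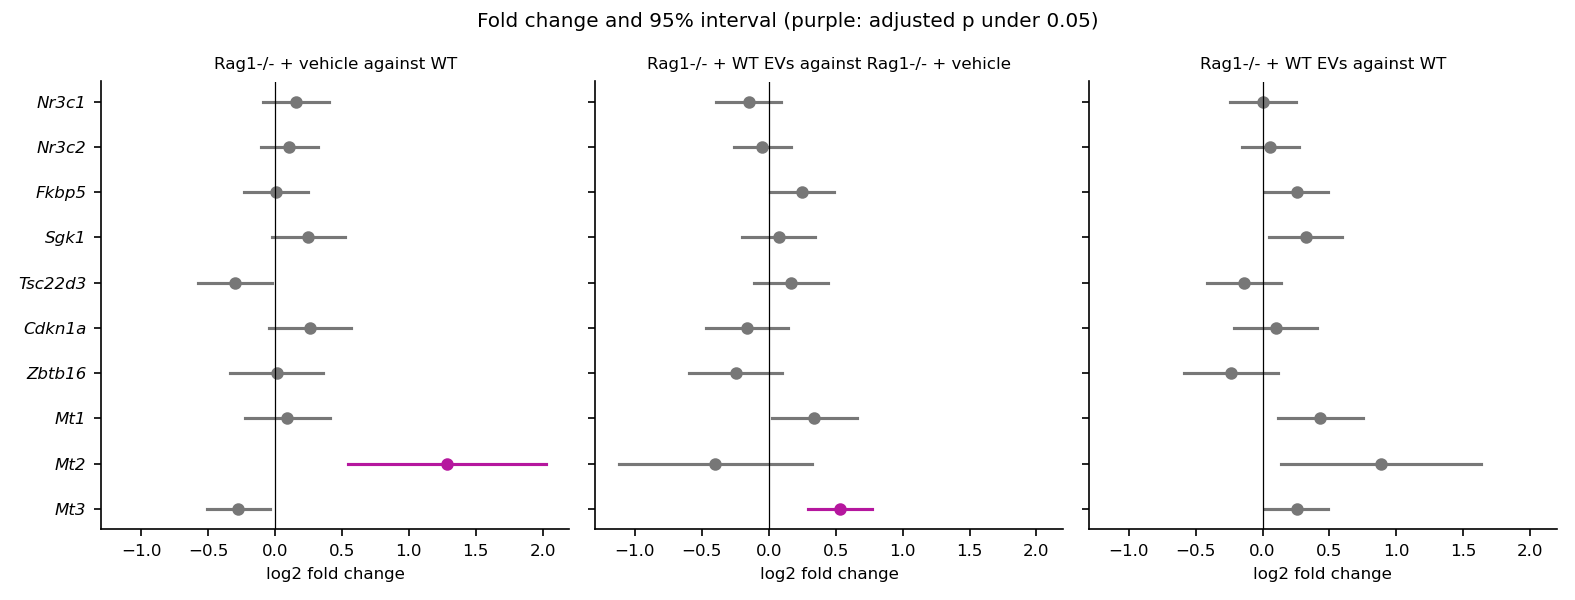
Log2 fold change of each member (edgeR, all 9 libraries) with its 95% interval in the 3 comparisons; purple marks an adjusted p under 0.05 over all 17948 genes. Intervals of the receptors, Cdkn1a and Zbtb16 cross 0 in every panel, Mt2 is purple at 1.28 in the first and Mt3 at 0.53 in the second.

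The metallothionein genes lie side by side on chromosome 8 of GRCm38, all on the plus strand: Mt3 at 94152607 to 94154146, Mt2 at 94172664 to 94173568 and Mt1 at 94179082 to 94180327. Their promoters are printed here because the 3 genes answer to metals unequally and also moved unequally in these libraries. The windows are the RefSeq promoter sequences (GRCm38.p6) from 250 bases before to 50 bases after a start site, 5′ to 3′. Capitals mark matches on either strand to the core of the metal response element, the site of Mtf1, searched as TGCGCNC and TGCACNC. None of the matches overlapped another.
Mt1 (chr8:94178839-94179138, plus strand): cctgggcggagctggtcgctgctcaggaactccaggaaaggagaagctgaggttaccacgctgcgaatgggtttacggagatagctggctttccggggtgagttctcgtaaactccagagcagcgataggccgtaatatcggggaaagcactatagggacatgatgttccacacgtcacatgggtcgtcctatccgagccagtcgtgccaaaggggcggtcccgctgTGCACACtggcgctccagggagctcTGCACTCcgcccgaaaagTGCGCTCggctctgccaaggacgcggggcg
Mt2 (chr8:94172368-94172667, plus strand): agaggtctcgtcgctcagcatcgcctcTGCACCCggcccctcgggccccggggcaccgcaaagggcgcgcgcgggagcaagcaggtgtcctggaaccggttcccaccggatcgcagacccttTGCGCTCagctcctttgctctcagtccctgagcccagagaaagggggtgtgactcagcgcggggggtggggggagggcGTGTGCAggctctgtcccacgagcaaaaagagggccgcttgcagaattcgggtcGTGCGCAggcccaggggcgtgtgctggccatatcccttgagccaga
Mt3 (chr8:94152357-94152656, plus strand): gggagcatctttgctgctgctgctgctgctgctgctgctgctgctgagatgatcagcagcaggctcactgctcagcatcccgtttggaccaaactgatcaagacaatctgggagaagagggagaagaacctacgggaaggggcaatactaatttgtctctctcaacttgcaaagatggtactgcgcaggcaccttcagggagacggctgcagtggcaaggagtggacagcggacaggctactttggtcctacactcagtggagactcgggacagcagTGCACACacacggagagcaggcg

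The Mt1 window held 3 of these cores, from 23 bases before to 26 bases after its start site. The Mt2 window held 4, from 223 bases before to 10 bases after its start site. That start site, 94172618, lies before the gene start of 94172664 given above. The Mt3 window held 1, from 27 to 33 bases after its start site, and the Mt1 and Mt2 windows also had cores after theirs. Of 32851 promoter windows of this length, 25.7% held at least 1 core, 1.97% at least 3 and 0.517% at least 4. The glucocorticoid response hexamer TGTTCT, searched on both strands, is in 19% of all windows and was in none of these 3. Among the other members, 8 of 10 of which had a promoter entry with the metallothioneins counted, Sgk1 had the hexamer in 3 of its 6 start site windows and Tsc22d3 in 1 of 3. Fkbp5, Cdkn1a and Nr3c2 had none. Such a match is a description of the letters in these windows, and its absence says only that they are not there.

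Mt2 was higher in Rag1-/- + vehicle libraries, at very low counts. It had 32, 39 and 25 reads in WT replicates 1, 3 and 6, 49, 93 and 108 reads in vehicle replicates 1, 2 and 3, and 50, 44 and 62 reads in EV replicates 2, 3 and 5. In CPM these are 0.94, 1.03 and 0.64 in WT, 1.35, 2.47 and 2.54 in vehicle and 1.47, 1.35 and 2.02 in EV libraries. All vehicle libraries and all EV libraries lay above all WT libraries, and vehicle replicate 1 lay among the EV libraries.

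The mean was 2.12 ± 0.67 CPM (SD, n = 3) in vehicle against 0.87 ± 0.201 in WT, a 2.44-fold difference (95% interval 1.46 to 4.07, log2 fold change 1.28, SE 0.337, edgeR adjusted p = 0.0328). In EV against WT libraries the log2 fold change was 0.89 (SE 0.339, edgeR adjusted p = 0.255), and in EV against vehicle libraries it was -0.40 (SE 0.327, edgeR adjusted p = 0.493). Neither of these differences passed. Without WT replicate 6, which had the fewest reads, the first was 1.11 on the log2 scale and stayed called (adjusted p = 0.0481). It was lost with the 6 libraries alone (adjusted p = 0.0678), with a covariate for reads outside exons (1.07, adjusted p = 0.246), with the replicate block (0.94, adjusted p = 0.109) and without WT replicate 1 or any of the vehicle libraries (1.16 to 1.54, adjusted p from 0.0604 to 0.117).

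What was counted for Mt2 may be a small part of the gene. Of its 588 exonic bases, 432 (73.5%) are shared with Gm45774, an antisense gene on the opposite strand. This overlap was read from GENCODE M21, whereas the authors counted with another release, so the stretch that was lost may differ. Counting ignored strand, and a read over both genes then counts for neither in HTSeq's default mode. Gm45774 itself had 2 to 12 reads per library, 12, 9 and 5 in WT and 11, 9 and 2 in vehicle libraries. Reads of the shared stretch would then be missing from every group, and the level of Mt2 relative to Mt1 cannot be read from this table.

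Mt1, whose exons are shared with no other gene, had 2232 to 3436 reads per library. It stood at 77.7, 77.6 and 57.4 CPM in WT, at 68.2, 85.5 and 73.2 CPM in vehicle and at 90.5, 84.4 and 112 CPM in EV libraries. WT and vehicle libraries overlapped, with a log2 fold change of 0.09 (-0.22 to 0.41), so a change of the size seen for Mt2 lay outside its interval. The EV libraries lay above every WT library and overlapped the vehicle libraries only at vehicle replicate 2. Their log2 fold change was 0.43 (SE 0.145, edgeR adjusted p = 0.231) against WT and 0.34 (SE 0.144, edgeR adjusted p = 0.19) against vehicle. Neither passed. The second passed without WT replicate 6 (0.34, adjusted p = 0.0491), a library of neither group, and the first passed when no filter on low counts was used (0.46, adjusted p = 0.0468). In TPM, scaled without TMM factors, the EV mean was 208 ± 20.3 (SD, n = 3), against 185 ± 27.5 in WT and 191 ± 5.05 in vehicle libraries.

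Mt3, the brain form, was lowest in vehicle libraries. Its mean was highest after WT EVs in CPM, but not in TPM, which is scaled without TMM factors. It had 136, 122 and 139 CPM in replicates 1, 3 and 6 of WT. Replicates 1, 2 and 3 of vehicle had 108, 113 and 107 CPM, and replicates 2, 3 and 5 of EVs had 181, 136 and 157 CPM. The vehicle libraries lay close together and below all 6 others, and the EV libraries overlapped WT only at EV replicate 3. Against vehicle the EV libraries were 1.45-fold higher (95% interval 1.23 to 1.70, log2 fold change 0.53, SE 0.107, edgeR adjusted p = 0.033). Vehicle libraries were lower than WT by a log2 fold change of -0.28 (SE 0.107) that did not pass (edgeR adjusted p = 0.0924), and EV against WT gave 0.26 (SE 0.107, edgeR adjusted p = 0.278).

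In TPM the Mt3 means were 403 ± 30.2 (SD, n = 3) in WT, 325 ± 29.4 in vehicle and 402 ± 53.6 in EV libraries. Its rise after EVs was lost without WT replicate 1, any vehicle library, or EV replicate 2 or 5, with a log2 fold change of 0.40 to 0.53 and an adjusted p from 0.0627 to 0.177. Without WT replicate 6 it was 0.53 and stayed called (adjusted p = 0.00542). So of the 3 neighbours, Mt2 was high in vehicle libraries, Mt3 low, and Mt1 between WT and EV means.

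Markers of astrocytes moved as Mt3 did, and so did those of microglia, but not those of every cell type. In vehicle libraries 9 of 15 astrocyte markers were lower than in WT and 0 higher, beside 9.71% and 6.28% of all genes (median log2 fold change -0.45, against -0.03 over all genes). In EV libraries 5 of these 15 markers were higher than in vehicle and 0 lower, beside 2.17% and 1.24% of all genes (median 0.45, against 0.04). Their summed level was 13847, 11784 and 11632 CPM in WT, 9128, 8594 and 7992 CPM in vehicle and 11165, 11500 and 11146 CPM in EV libraries, and none of the 15 was at 0 in any library. Slc1a2, the main glutamate transporter, makes up most of this sum. Ppp1r3c (-0.95, edgeR adjusted p = 0.0141) and Aldoc (-0.65, edgeR adjusted p = 0.015) led the list in vehicle against WT, and both also led it in EVs against vehicle (0.74 and 0.61). Without WT replicate 6 the counts were 13 and 12. Without WT replicate 1 they were 0 and 2, without a vehicle library 0 and at most 1, and without EV replicate 2 or 5 the second was 0. The first was 5 without EV replicate 2 or 3. Markers of meningeal fibroblasts, cells that also make Mt1 and Mt2, summed to 243 to 476 CPM in WT, 475 to 623 CPM in vehicle and 755 to 1307 CPM in EV libraries, and none was at 0. Of these 12, 3 were called higher in vehicle against WT (Islr, Fmod and Igf2, list median 0.54), 2 in EVs against vehicle (Slc6a13 and Ptgds, median 0.79) and 2 in EVs against WT (Slc6a13 and Islr, median 1.51), with 0 lower. Over all genes 6.28% and 2.17% were called higher in the first 2 comparisons, and 0.0446% in either direction in EVs against WT. Microglia markers also moved as Mt3 did. Of 11 tested, all had log2 fold changes below 0 in vehicle against WT (2 called lower, Siglech and Tyrobp, median -0.19), beside 9.71% of all genes called lower. All 11 were higher without overlap in EVs against vehicle (3 called, Siglech, C1qb and Tyrobp, median 0.42). Over all genes 37% did not overlap in that comparison, and 2.17% were called higher. The microglia markers summed to 265 to 398 CPM in WT, 283 to 318 in vehicle and 379 to 413 in EV libraries, and Trem2 did not pass the filter on low counts. In EVs against vehicle all 12 oligodendrocyte and all 12 endothelial markers had log2 fold changes above 0. There 0 of either list were called (4 and 1 at an unadjusted edgeR p under 0.05, 1 and 0 in DESeq2). In vehicle against WT 7 oligodendrocyte markers lay above 0 and 5 below (median 0.13), and 1, Cldn11, was called, as higher (0.53). Of the endothelial markers 3 lay above 0 and 9 below there (median -0.18), and 0 were called. In bulk tissue, fewer cells of a type and less RNA per cell cannot be told apart. The part of these markers in the results for Mt3, Mt1 and Mt2 was not tested.

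**Figure D4:**
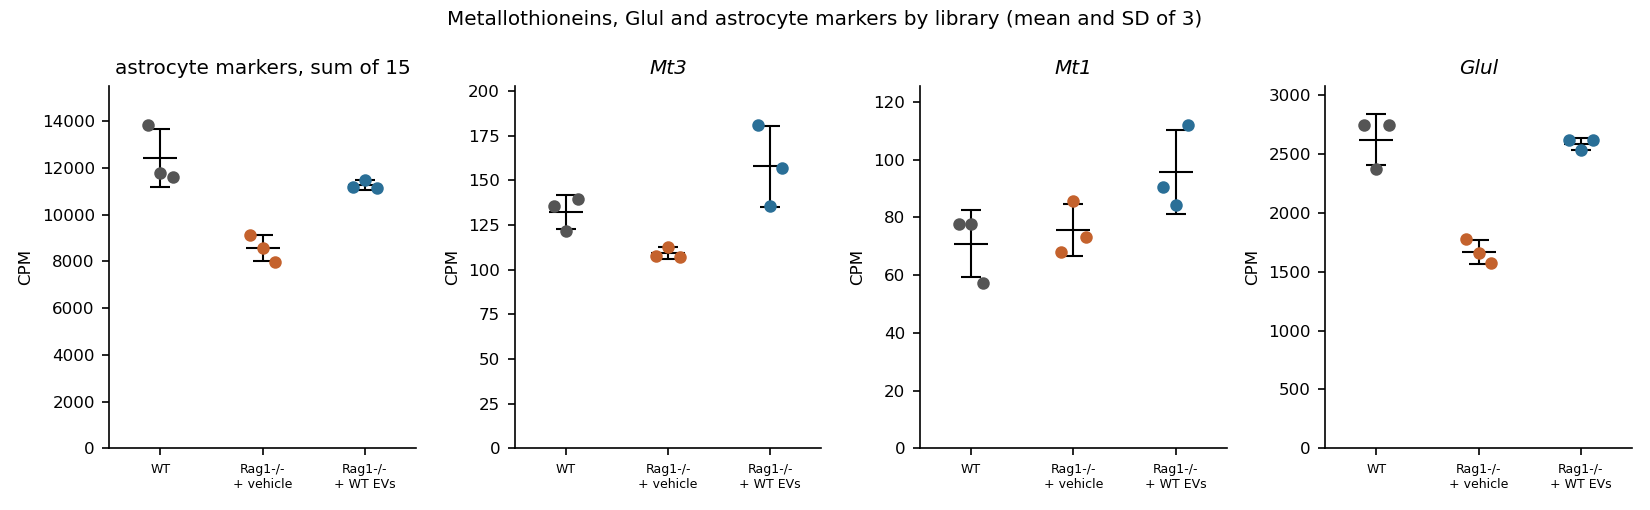
Summed CPM of 15 astrocyte markers and CPM of Mt3, Mt1 and Glul in each library (points), with the mean and SD of 3 libraries; axes start at 0. The vehicle libraries are lowest for the marker sum (7992 to 9128 CPM), for Mt3 (107 to 113 CPM) and for Glul (1574 to 1777 CPM), but not for Mt1.

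Other glucocorticoid-induced genes were read from a list of 26, of which 25 were tested. In Rag1-/- + vehicle against WT 6 were lower and 0 higher, beside 9.71% and 6.28% of all genes, with a median log2 fold change of -0.21. Glul, the glutamine synthetase of astrocytes, fell from 2621 ± 214 CPM (SD, n = 3) in WT to 1670.1 ± 102 in vehicle libraries (log2 fold change -0.65, SE 0.0948, edgeR adjusted p = 0.015). Pdk4, a kinase that restrains the use of glucose for oxidation, fell from 19.4 ± 2.41 to 11.4 ± 1.27 CPM (-0.77, edgeR adjusted p = 0.015). Mertk, a receptor for the uptake of dying cells and synapses, fell by 0.47 on the log2 scale (edgeR adjusted p = 0.027). The rest of the 6 were Sult1a1, Tiparp and Lcn2, which are named here after their values were seen, and Lcn2 averaged 1.43 CPM in WT through 3.81 CPM in replicate 3. Of 8 blood markers, 7 also had log2 fold changes below 0 in this comparison, and 2 were called lower, S100a8 and S100a9 (DESeq2 called 1). The 8 markers summed to 22.8 to 92.4 CPM in WT and 3.72 to 71.9 CPM in vehicle libraries. Their part in the value of Lcn2 was not tested. Per1 (0.38), Dusp1 (0.51), Klf9 (0.26) and Ddit4 (0.06, all log2), also picked after their values were seen as familiar hormone-responsive genes of the brain, did not pass.

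In WT EVs against vehicle 4 of the 25 were higher and 0 lower, beside 2.17% and 1.24% of all genes, with a median log2 fold change of 0.37. Glul rose to 2586 ± 50.1 CPM (SD, n = 3; log2 fold change 0.63, SE 0.0948, edgeR adjusted p = 0.0242), and Klf15, a transcription factor of glucocorticoid and fasting responses, rose from 15.4 ± 1.75 to 24.8 ± 2.13 CPM (0.69, edgeR adjusted p = 0.0286). Sult1a1, a sulfotransferase, rose by 0.94 on the log2 scale (edgeR adjusted p = 0.0286), and Pdk4, the last of the 4, by 0.68. In WT EVs against WT 0 of the 25 passed in edgeR (5 at an unadjusted p under 0.05, 1 in DESeq2), and Klf15 (0.48, edgeR adjusted p = 0.174) had the smallest p. Both comparisons use the vehicle libraries, so low values there give a fall in one and a rise in the other. The lowered genes numbered 6 without WT replicate 6 and 0 when WT replicate 1 or any vehicle library was left out, and leaving out EV replicate 3 gave 3. WT replicate 3 set the direction of the list's median. With that library left out, the median in vehicle against WT was 0.09 instead of -0.21. Then 5 genes were lower, Lcn2 no longer among them (-1.02, adjusted p = 0.326), and 3 became called as higher: Rhob (0.67), Errfi1 (0.54) and Gpd1 (0.47, all log2), named after their values were seen. In EVs against WT the same omission gave 3 higher, Rhob (0.77), Klf15 (0.58) and Ddit4 (0.49). Genes higher after EVs numbered 7 without WT replicate 6, and leaving out EV replicate 3 gave 1. Their number was 0 once WT replicate 1, any vehicle library, or EV replicate 2 or 5 was left out. Gjb6 is on both the glucocorticoid and the astrocyte list, Glul is a classic astrocyte gene as well, and the astrocyte values above stand beside these counts too, their part in them not tested.

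**Figure D5:**
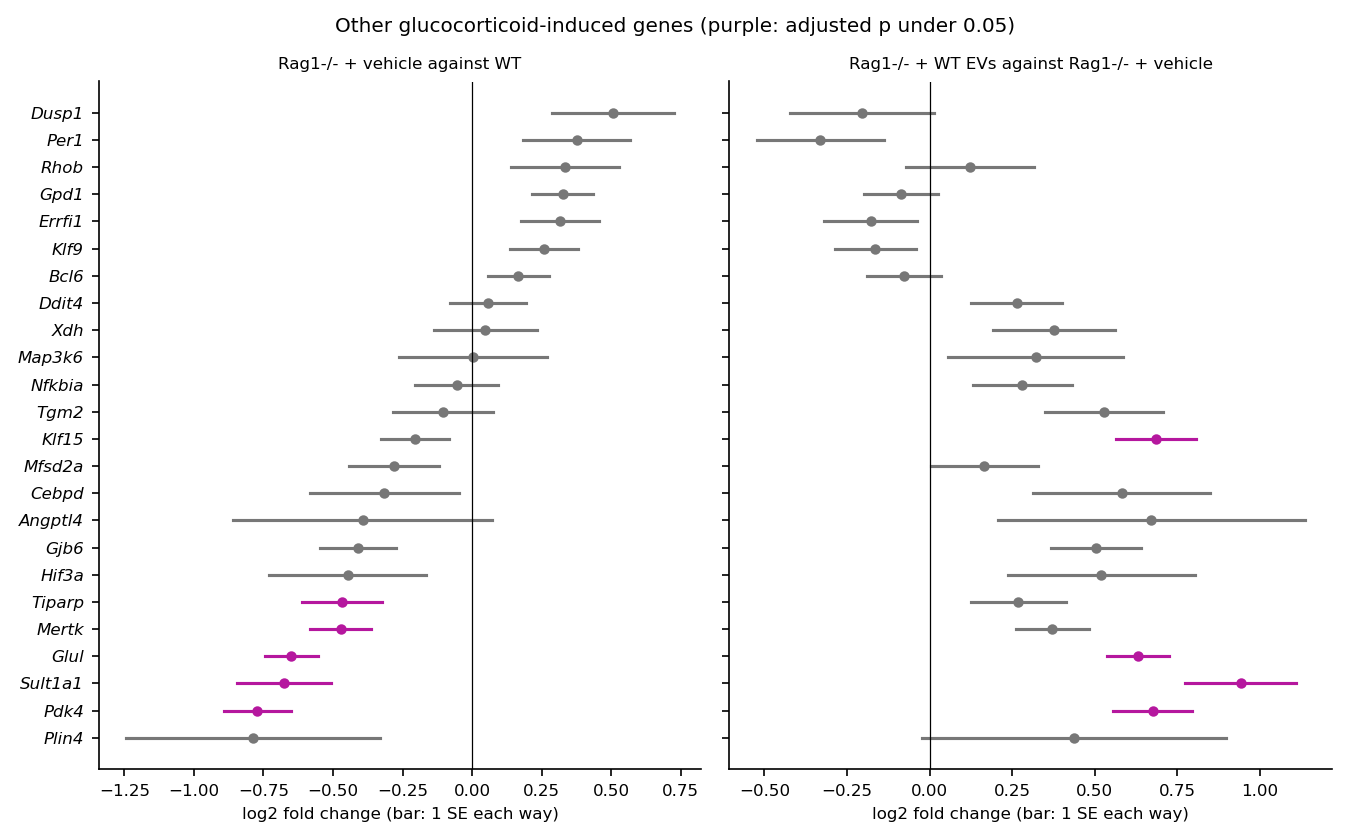
Log2 fold change (edgeR) with 1 SE each way of 24 of the 25 tested genes of the glucocorticoid-induced list, ordered by the left panel; Lcn2 (-3.65 on the left) is left out for scale, and purple marks an adjusted p under 0.05. Glul, Pdk4 and Sult1a1 are purple on both sides, which share the vehicle libraries, while Per1, Dusp1 and Klf9 lie to the right of 0 on the left and are grey.

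Of 12 genes listed as receptor chaperones and co-chaperones, 2 were higher and 0 lower in vehicle against WT, beside 6.28% and 9.71% of all genes. They were Hsp90aa1 (731 ± 14.7 against 517 ± 101 CPM, SD, n = 3, log2 fold change 0.50, edgeR adjusted p = 0.0396) and Hsp90ab1 (0.49, edgeR adjusted p = 0.0479), the cytosolic forms of Hsp90. Both calls were lost without WT replicate 6 (0.35 and 0.32, adjusted p of 0.06 and 0.0774), WT replicate 1, any vehicle library, or EV replicate 2 or 3, and Hsp90ab1 without EV replicate 5. They were also lost in the 6 libraries alone and with the replicate block (0.33 and 0.28), and the covariate for reads outside exons brought them to 0.18 and 0.15. In the other comparisons 0 chaperones passed in edgeR or DESeq2 (3 and 1 at an unadjusted edgeR p under 0.05). Of 11 coregulators, 1 was higher and 0 lower in vehicle against WT, beside 6.28% and 9.71% of all genes. It was Smarca4, the motor subunit of the BAF remodelling complex (0.34, edgeR adjusted p = 0.0393). It did not pass once WT replicate 6 (0.29, adjusted p = 0.079), WT replicate 1, any vehicle library, or EV replicate 2 or 3 was left out. Nor did it pass in the 6 libraries alone, with the block or with the covariate (0.23). In EVs against vehicle all 11 coregulators had log2 fold changes below 0 (median -0.30), 8 of them with groups that did not overlap (37% of all genes). None passed in edgeR, although 9 had an unadjusted p under 0.05, DESeq2 called 7, and 5 passed as lower with read totals in place of TMM factors. In that comparison 3814 of 17948 genes had an unadjusted edgeR p at or below the 0.0423 of Fkbp5. Of 10 tested genes of steroid handling and the CRH system, 1 was called in vehicle against WT, beside 16% of all genes. In the other comparisons 0 were called. The 1 was Hsd11b1, which regenerates active glucocorticoid inside cells. It stood at 8.82 ± 0.798 CPM (SD, n = 3) in vehicle and 13.6 ± 3.86 in WT libraries (-0.62, edgeR adjusted p = 0.0432). That call was lost in the 6 libraries alone and in limma-voom.

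Of 22 tested genes of zinc and copper handling, 3 passed in vehicle against WT, beside 16% of all genes. Of these, 2 importers, Slc39a3 (0.33, edgeR adjusted p = 0.0426) and Slc39a6 (0.56, edgeR adjusted p = 0.0495), were higher in vehicle than in WT libraries, and Atox1, a copper chaperone, was lower (-0.46, edgeR adjusted p = 0.0252). The importers' calls were lost when any library but WT replicate 3 was left out, and that of Atox1 without WT replicate 1 or any vehicle library. All 3 were lost in the 6 libraries alone, with the block and with the covariate, which brought Slc39a3 to 0.16, Slc39a6 to 0.24 and Atox1 to -0.40. In this list 0 genes passed in EVs against vehicle (5 at an unadjusted p under 0.05, 2 in DESeq2) or in EVs against WT (3 and 0). Of 11 oxidative stress genes of Nrf2, which also induces metallothioneins, 0 passed in edgeR in any comparison (2, 2 and 0 at an unadjusted p under 0.05, and 1, 2 and 0 in DESeq2). Of 13 tested p53 targets, the other pathway that drives Cdkn1a, Plk2 was higher (0.63) and Trp53inp1 lower (-0.39) in vehicle against WT, and 0 passed in EVs against vehicle (4 at an unadjusted p under 0.05, 1 in DESeq2) or in EVs against WT (5 and 0). The calls of Plk2 and Trp53inp1, beside 16% of all genes, were lost in the 6 libraries alone. Of 9 tested immediate early genes, 3 were higher and 0 lower in vehicle against WT, beside 6.28% and 9.71% of all genes. There 8 lay above 0 and 1 below (median 0.67). In EVs against vehicle 1 lay above 0 and 8 below (median -0.58), and 0 were called. DESeq2 called 3 in each, limma-voom 1 and 0. Their part in the results for the members was not tested.

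The genes whose pattern was most like that of Mt2 over the 9 libraries, by the root mean square difference of standardised log2 CPM among 10620 protein-coding genes averaging at least 5 CPM, were B4galnt4 (0.26), Vipas39 (0.27) and Cirbp (0.28). Their changes were smaller: B4galnt4, the nearest, averaged 37.8 CPM in WT, 52.4 in vehicle and 47.2 in EV libraries. Most like Fkbp5 were Sgce (0.34), Ptpn14 (0.37) and Fuk (0.41). Sgce, a sarcoglycan, averaged 16.5 CPM in WT, 16.8 in vehicle and 20.2 in EV libraries. Between members, the smallest difference was that of Nr3c1 and Nr3c2 (0.75) and the next that of Cdkn1a and Mt2 (0.75). Mt1 and Mt2 differed by 0.89, and Mt2 and Mt3 by 1.49.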

How the data were processed

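PFC RNA was sequenced in 9 libraries. The authors aligned reads with STAR (2.7.5c) to GRCm38, counted reads over exons with HTSeq (0.11.1 per the labels; the methods give another version) without regard to strand, and deposited raw counts per gene. Gene names, exons and overlaps came from GENCODE M21, another release than the one the authors counted with, in which 55230 of 56246 identifiers (98.19%) were found. Lines for unassigned reads stayed out of library sizes; reads outside exons came to 6.54 to 30.1% and ambiguous reads to 3.1 to 4.31%.

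All 9 libraries entered 1 fit of the counts (edgeR 4.0.16 in R 4.3.3). Genes were kept by filterByExpr, at a minimum count of 10 and a minimum total of 15, scaled by TMM and tested 2-sided by quasi-likelihood. A gene was called at a Benjamini-Hochberg p under 0.05 over the 17948 tested. SE is the fold change divided by the square root of F. Members and lists were chosen with earlier results of these data known. Named genes were the members, Rag1, up to 3 genes with the smallest p per list and comparison, and the 3 genes most like Mt2 and Fkbp5; others are said to be chosen later. Alternatives were DESeq2 (1.42.0), limma-voom (3.58.1) with and without library quality weights, the 6 libraries compared, other scalings and filters, a replicate block, a covariate for reads outside exons (log2 share), and each library left out. Read totals without TMM factors, and list counts under each alternative, were added after the data had been seen. A planned comparison of metallothionein proteins was not made here. Figures were drawn with matplotlib.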

Additional observations from a re-analysis of the deposited data

How the results depend on the processing

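Counts of called genes moved with the model and the libraries, and member calls with them. In vehicle against WT the called genes numbered 2871, and 4457 with DESeq2, 1608 with limma-voom, 6140 with library quality weights, 5089 with no filter, 712 with the replicate block, 109 with a covariate for reads outside exons and 0 in the 6 libraries alone (5387 at an unadjusted p under 0.05). Leaving out 1 library gave 0 to 6602. Member calls, 1 in the main result, were 3 with quality weights (Tsc22d3 and Mt3 added as lower), 0 in the 6 libraries, with the block and with the covariate, and 0 to 2 without 1 library. In EVs against vehicle 613 genes became 2169 with DESeq2, 4055 with quality weights, 3289 in the 6 libraries, 1102 with no filter, 1149 at 1 CPM in 3 libraries and 1830 with the covariate, and 0 to 2985 without 1 library; members called were 0 to 2. In EVs against WT 8 genes became 398 with DESeq2, 188 with quality weights, 0 in the 6 libraries (1890 at an unadjusted p), 668 with no filter, 20 at 1 CPM, 5 with the block, 28 with the covariate, 5 with read totals and 0 to 1537 without 1 library; members called were 0 to 0 without 1 library and 1 with no filter. The cause was not tested.

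Replicate numbers were not shown to pair libraries (correlations of 0.16, 0.0172, 0.087, 0.0795 and -0.153). With the replicate block Mt2 was 0.94 (adjusted p = 0.109) in vehicle against WT and not called, and 741 genes and 1 member were called in EVs against vehicle.

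Of 600 member values under alternatives, 550 kept direction and call, 13 were weaker, 5 stronger and 32 reversed, none of them further than 0.12 from 0 on the log2 scale. In vehicle against WT these were Zbtb16 (-0.095) with quality weights, Fkbp5 (-0.051) and Zbtb16 (-0.049) with upper-quartile factors, Fkbp5 (-0.037) and Zbtb16 (-0.035) at 1 CPM, Fkbp5 (-0.037) and Zbtb16 (-0.029) with read totals, Mt1 (-0.12) with the replicate block, and Nr3c1 (-0.033), Sgk1 (-0.016) and Mt1 (-0.064) with the covariate. Without 1 library they were Fkbp5 (-0.046 to 0.13), Zbtb16 (-0.055 to 0.16) and Mt1 (-0.038 to 0.21). In EVs against vehicle they were Nr3c2 (0.0062) with the replicate block and Sgk1 without 1 library (-0.012 to 0.11). In EVs against WT they were Nr3c1 with DESeq2 (-0.00055), quality weights (-0.11), DESeq2 size factors (-0.00057), upper-quartile factors (-0.022), 1 CPM (-0.030), the covariate (-0.11) and read totals (-0.087), Nr3c2 (-0.036) with read totals, and Cdkn1a (-0.060) with the block. Without 1 library, Nr3c1 ran from -0.093 to 0.10 and Nr3c2 from -0.0028 to 0.14. Depth limits Mt2, at 25 to 108 reads per library.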
